A study of Mus musculus with 12 samples.

Results

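The genes described here encode the structural subunits of the proteasome that do not cut proteins, the caps that activate it and the factors that assemble it. They were chosen by name from a list of 39 genes and leave out the catalytic beta subunits. No measured value entered the rule, but the list was drawn up with earlier results of these data known. Of the 39 genes, 37 had a probe on the array, with 55 of its 25697 probes, and 35 were measured among the 6563 genes tested. They comprised 7 genes of the alpha ring, 4 non-catalytic beta subunits, 6 ATPases and 3 other subunits of the base of the regulatory particle, 7 subunits of its lid, 2 of its assembly chaperones, 3 activators of the PA28 and PA200 kinds and 3 factors that assemble the core. RNA was measured on 12 Illumina bead arrays in alveolar macrophages, which clear particles and microbes from the lung's air sacs, with 3 arrays in each of 4 groups. The groups were LMP7ko M2, LMP7ko M0, WT M2 and WT M0, where LMP7ko cells came from mice lacking Lmp7 and WT cells from control mice, all C57Bl/6J and 8 to 12 weeks old. M2 cells had been given interleukin-4 (IL-4), the cytokine that drives alternative activation of macrophages, at 20 ng/ml for up to 24 h, and M0 cells were unpolarized. The gene Psmb8 encodes Lmp7, also called beta5i, which takes the place of Psmb5 in the immunoproteasome. The sources used here do not say how the allele was made. The labels do not state that the 3 samples of a group were taken from different mice, and the p-values then rest on a spread that may be technical alone.

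The proteasome is the cell's main machine for destroying proteins tagged with ubiquitin. Its core is a barrel of stacked rings. The outer rings, made of alpha subunits, form a gate, and the inner rings, made of beta subunits, hold the cutting sites. A regulatory particle docks on the gate: the ATPases of its base unfold the substrate and thread it in, and its lid removes the ubiquitin chain. Other caps, PA28 and PA200, open the gate without ATP. Dedicated chaperones build the core and the base. In macrophages the proteasome also yields the peptides that are shown on MHC class I, and interferon swaps the catalytic beta subunits for their immunoproteasome counterparts while the structural subunits stay the same.

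The promoters of these genes are shown for some members named in the results below, chosen after their values were seen: Psma4, Psmb3, Psmc4 and Psmc1 rose with IL-4, and Psmd10 was lower with IL-4 in LMP7ko cells. Other risers, some with steadier calls than Psmc1, are not shown. Each line gives the 250 bases before the RefSeq start in assembly GRCm38.p6, 5′ to 3′ on the gene's strand. Capitals mark a CCAAT box (CCAAT), a GC box (GGGCGG) or an ETS core (CCGGAAG) on either strand. The windows lie at chr9:54950609-54950858 on the plus strand, chr11:97703184-97703433 on the plus strand, chr7:28050093-28050342 on the minus strand, chr12:100109952-100110201 on the plus strand and chrX:140956712-140956961 on the minus strand, in the order printed.
Psma4: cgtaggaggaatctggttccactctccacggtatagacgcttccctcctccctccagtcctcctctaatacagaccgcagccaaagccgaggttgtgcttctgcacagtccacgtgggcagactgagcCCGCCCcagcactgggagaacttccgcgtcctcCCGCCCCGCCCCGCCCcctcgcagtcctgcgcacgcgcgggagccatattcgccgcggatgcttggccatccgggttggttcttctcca
Psmb3: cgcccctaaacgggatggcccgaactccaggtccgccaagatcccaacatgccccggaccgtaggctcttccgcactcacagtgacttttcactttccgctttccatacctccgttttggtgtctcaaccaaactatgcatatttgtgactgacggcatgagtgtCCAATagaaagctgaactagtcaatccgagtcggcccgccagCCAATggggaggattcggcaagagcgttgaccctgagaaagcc
Psmc4: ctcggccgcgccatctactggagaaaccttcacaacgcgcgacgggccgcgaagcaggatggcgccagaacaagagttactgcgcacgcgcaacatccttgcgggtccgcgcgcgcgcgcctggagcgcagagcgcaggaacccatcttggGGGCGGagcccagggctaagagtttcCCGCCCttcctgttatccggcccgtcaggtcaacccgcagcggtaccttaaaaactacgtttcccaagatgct
Psmc1: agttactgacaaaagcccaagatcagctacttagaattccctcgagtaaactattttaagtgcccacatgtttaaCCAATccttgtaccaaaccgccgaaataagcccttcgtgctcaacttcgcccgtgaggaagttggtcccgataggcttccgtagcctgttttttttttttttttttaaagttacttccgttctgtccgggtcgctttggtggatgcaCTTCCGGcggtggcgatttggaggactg
Psmd10: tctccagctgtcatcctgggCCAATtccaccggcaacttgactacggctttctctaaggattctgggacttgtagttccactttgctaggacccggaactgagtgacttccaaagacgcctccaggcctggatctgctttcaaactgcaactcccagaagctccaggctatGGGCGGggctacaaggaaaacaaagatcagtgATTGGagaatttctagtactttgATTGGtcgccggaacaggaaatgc
RefSeq's table held 36 promoters of 33 of the 39 genes, among 32851 promoters in all. Every motif was searched on both strands of the same 250 bases, and matches of different motifs could overlap. All promoters include those of genes not detected in these cells, and shares over detected genes alone were not computed. The ETS core stood in 38.9% of the member promoters, against 6.91% of all promoters. The GC box stood in 61.1% of them, against 32.7% of all. The CCAAT box was about as frequent in both, at 36.1% and 33.8%. The core of the antioxidant response element (TGACNNNGC), the site class to which the proteasome gene regulator Nfe2l1 and its relative Nfe2l2 bind, stood in 11.1% of member promoters and 10.2% of all. The core bound by STAT6 (TTC and GAA with 4 bases between), the factor that IL-4 activates, was in 0 of the 36 member promoters and in 5.85% of all. An interferon regulatory factor core (GAAA repeated with 2 bases between) was in 8.33% of member promoters, those of Psmb3, Psmd4 and Psmd9, and in 2.98% of all. Among the measured members, the CCAAT box was in 6 of the 10 promoters of genes that rose with IL-4 in the mean over both genotypes and in 6 of the 22 promoters of the others, while the ETS core was in 4 of 10 and 10 of 22. The GC box was in 4 of 10 and 14 of 22, and the antioxidant response element core in 0 of 10 and 3 of 22. A match is only a run of letters in this window.

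Of the 35 measured genes, 33 were detected on all 12 arrays (detection p under 0.05), as were 59.2% of all genes tested. The exceptions were the core assembly factors Psmg1, on 9 arrays, and Psmg2, on 10. The genes were also measured with little scatter: the median SD between arrays of a group was 0.121 log2 units over the 35 genes and 0.225 over all genes, and 30 of the 35 lay under that second value. Of the other 4 genes, the ubiquitin receptor Adrm1 and the lid subunit Psmd3 had no probe named for them. The 2 probes of Psmd5, a chaperone of the base, were detected on no array. The probe of Psme2, which pairs with Psme1 in the interferon-inducible form of PA28, was detected on 1 of 12 arrays, with deposited intensities from -1 to 55 and a median of 25.5, so nothing is reported of these 4.

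The targeted gene followed the labels: Psmb8 read 5.36 to 5.79 log2 units on the 6 LMP7ko arrays, where it was not detected, and 7.53 to 8.04 on the 6 WT arrays, where it was detected on each. Whether its probe lies in the deleted part is not known here. Arrays detected 25.5% to 34.2% of all probes, with the lowest shares on arrays a of LMP7ko M2, LMP7ko M0 and WT M0. Of 10 alveolar macrophage markers with a probe, 9 were detected on at least 3 arrays, and Car4 was detected on none. No marker of B cells, red cells, eosinophils, dendritic cells or fibroblasts was detected on 3 or more arrays. Of the T cell markers Cd2 was detected on all 12 arrays and the other 4 with a probe on none, and of the endothelial markers Pecam1 was detected on 4 and the other 2 on none. Of the neutrophil markers, S100a8 and Csf3r were detected on at least 3 arrays while S100a9, Mmp9 and Retnlg were detected on none. The summed intensity of that list was 237 to 249 in LMP7ko M2, against 423 to 544 in LMP7ko M0 cells, and 215 to 252 in WT M2, against 320 to 379 in WT M0 cells. S100a8 averaged 6.74 log2 units in LMP7ko M2, 8.16 in LMP7ko M0, 6.58 in WT M2 and 7.61 in WT M0 cells. Csf3r averaged 4.98, 6.33, 5.07 and 5.93 in the same order. S100a9, Mmp9 and Retnlg stayed at group means of 4.90 to 5.36. Of the epithelial markers, Cdh1, which alveolar macrophages themselves express, was detected on every array, Sftpc on 5, Scgb1a1 on 3, Sftpb on 1, and Krt8 and Krt18 on none. That list summed to 2880 to 3440 in LMP7ko M2, against 1250 to 1330 in LMP7ko M0 cells, and 3040 to 3270 in WT M2, against 1420 to 1690 in WT M0 cells. Most of that sum was Cdh1, which averaged 11.53 log2 units in both M2 groups, 10.05 in LMP7ko M0 and 10.26 in WT M0 cells. The other epithelial markers had group means of at most 6.45. The neutrophil and epithelial sums differed between M2 and M0 arrays and between LMP7ko M0 and WT M0 arrays without overlap. The alveolar macrophage list summed to 23000 to 23300 in LMP7ko M2, against 18400 to 19200 in LMP7ko M0 cells. In WT cells it summed to 22600 to 24900 in M2, against 18600 to 19500 in M0. Of its 9 measured genes, 4 rose with IL-4 in the mean over both genotypes, against 15.3% of all genes (limma, adjusted p under 0.05). In that mean 3 fell, against 16%. In the mean genotype difference 2 were lower in LMP7ko cells, against 1.84%, and 0 higher. The part of these lists in the IL-4 responses and genotype differences below was not tested.

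After IL-4, members of 5 of the 8 classes rose: alpha ring, non-catalytic beta subunits, ATPases, lid and activators. In the mean response over both genotypes, 11 of the 35 measured genes rose (limma, Benjamini-Hochberg adjusted p under 0.05 over all 6563 genes), against 15.3% of all genes, and 0 fell, against 16% of all genes; at an unadjusted p under 0.05 the numbers were 12, against 19.7% of all genes, and 0, against 20.5% of all genes. The risers were Psma3, Psma4, Psma6, Psmb1, Psmb2, Psmb3, Psmc1, Psmc4, Psmd6, Psmd14 and Psme3. The changes were small: 0.23 to 0.56 on the log2 scale, or 1.17-fold to 1.47-fold. The share of members past the threshold in either direction was 31.4%, as over all genes. The median difference was 0.19 over the members and 0.01 over all genes, and 32 of 35 members lay above 0, as did 51% of all genes. The lowest differences were those of Psmd10 at -0.13 ± 0.0911, Psmd8 and Psmd4, of which none passed (Psmd10 adjusted p = 0.3156). In bulk RNA of this kind, fewer cells of a type and less RNA per cell cannot be told apart, and the values are relative to the other transcripts on the array.

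Array by array, the median, over the 35 genes, of the deviation from each gene's own mean was 0.06 to 0.14 log2 units on the LMP7ko M2 arrays, against -0.12 to -0.06 on the LMP7ko M0 arrays. It was 0.06 to 0.12 on the WT M2 arrays, against -0.09 to -0.05 on the WT M0 arrays. No M2 array overlapped an M0 array in this median. On the M2 arrays 24 to 29 of the 35 genes lay above their own mean, against 7 to 11 on the M0 arrays.

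**Figure D1:**
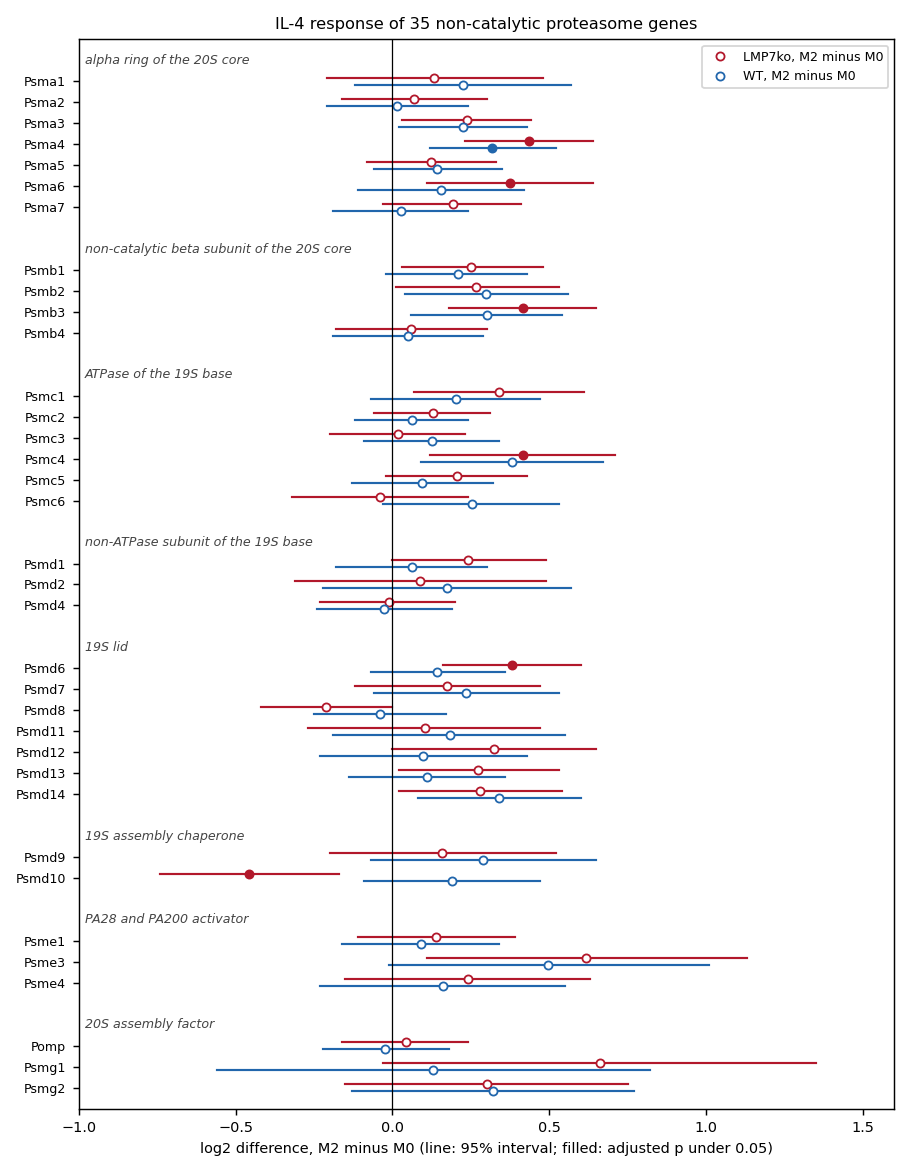
Each row is 1 of the 35 measured genes, grouped by its role; points give the log2 difference between M2 and M0 cells (x axis) in LMP7ko and in WT cells, lines the 95% interval from limma, and filled points an adjusted p under 0.05. Most points lie right of 0 in both genotypes, and Psmd10 in LMP7ko cells is the filled point on the left.

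**Figure D2:**
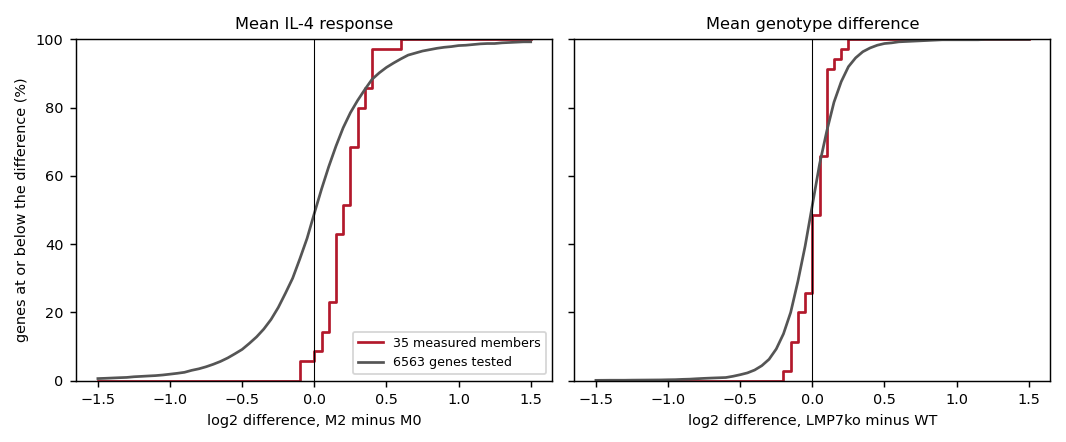
The y axis gives the percentage of genes at or below the log2 difference on the x axis, for the 35 measured members and for the 6563 genes tested; the left panel is the mean IL-4 response (M2 minus M0) and the right panel the mean genotype difference (LMP7ko minus WT). The members' curve lies to the right of that of all genes for IL-4, with medians of 0.19 and 0.01, and is steeper and centred on 0 for genotype.

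The alpha ring, the gated outer ring of the core, had 7 of 7 genes above 0 and 3 that rose. Psma4 (probe ILMN_2771944) read 9.29, 9.29 and 9.24 log2 units in LMP7ko M2 cells, against 8.81, 8.88 and 8.83 in LMP7ko M0 cells. In WT cells it read 9.20, 9.22 and 9.06 in M2, against 8.93, 8.78 and 8.81 in M0. Every M2 array lay above every M0 array, and the mean response of 0.38 ± 0.0650 log2 (SE, adjusted p = 0.00108) had the smallest p of any member. Psma3 read 10.70, 10.75 and 10.58 in LMP7ko M2 and 10.74, 10.75 and 10.64 in WT M2 cells, against 10.43, 10.52 and 10.37 in LMP7ko M0 and 10.55, 10.47 and 10.43 in WT M0 cells. Here too all 6 M2 arrays lay above all 6 M0 arrays, by 0.23 ± 0.0666 log2 on average (adjusted p = 0.02079). Psma6 read 9.02, 8.94 and 8.95 in LMP7ko M2 cells, against 8.50, 8.51 and 8.77 in LMP7ko M0 cells, and 8.62, 8.95 and 8.97 in WT M2 cells, against 8.64, 8.68 and 8.75 in WT M0 cells. Its groups overlapped in WT cells, through WT M2 array a, and its mean response was 0.26 ± 0.0848 log2 (adjusted p = 0.03435). The other alpha genes, Psma1, Psma2, Psma5 and Psma7, had mean responses of 0.04 to 0.18 on the probes shown and did not pass the test. The dimmer probe of Psma7 gave 0.21 ± 0.0667 in a fit over all kept probes.

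The non-catalytic beta subunits, which close the inner rings around the cutting sites, had 4 of 4 genes above 0 and 3 that rose. Psmb3 (probe ILMN_2708599) read 8.94, 9.08 and 9.17 log2 units in LMP7ko M2 cells, against 8.71, 8.53 and 8.70 in LMP7ko M0 cells. It read 8.72, 8.89 and 8.95 in WT M2 cells, against 8.64, 8.49 and 8.53 in WT M0 cells. The 6 M2 arrays lay above the 6 M0 arrays, and the mean response was 0.36 ± 0.0767 log2 (adjusted p = 0.004179). Psmb2 read 10.18, 10.21 and 10.07 in LMP7ko M2 cells, against 9.76, 10.01 and 9.88 in LMP7ko M0 cells, and 10.14, 10.22 and 10.17 in WT M2 cells, against 9.71, 10.10 and 9.82 in WT M0 cells. Within each genotype its groups did not overlap, its 3 probes gave mean responses of 0.28 to 0.35, and the shown one had an adjusted p of 0.02283. Psmb1 rose by 0.23 ± 0.0720 log2 (adjusted p = 0.03071), with M2 and M0 arrays apart in LMP7ko cells and overlapping in WT cells. There WT M2 array c read 8.91 and WT M0 array a 8.92. Psmb4 had a mean response of 0.05 ± 0.0762 (adjusted p = 0.6592).

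In the base, whose ring of ATPases pulls the substrate into the core, 6 of 6 ATPases lay above 0 and 2 rose. Psmc4 (probe ILMN_2632349) read 7.96, 8.02 and 7.82 log2 units in LMP7ko M2 cells, against 7.42, 7.69 and 7.44 in LMP7ko M0 cells. In WT cells it read 8.08, 8.14 and 7.89 in M2, against 7.71, 7.43 and 7.83 in M0. Its groups did not overlap in either genotype, and the mean response was 0.40 ± 0.0936 log2 (adjusted p = 0.007283). Psmc1 read 8.71, 8.74 and 8.73 in LMP7ko M2 cells, against 8.58, 8.13 and 8.45 in LMP7ko M0 cells, and 8.79, 8.57 and 8.65 in WT M2 cells, against 8.37, 8.55 and 8.49 in WT M0 cells. The groups were again apart in both genotypes, with a mean response of 0.27 ± 0.0877 log2 (adjusted p = 0.03591). Psmc2, Psmc3, Psmc5 and Psmc6 had mean responses of 0.07 to 0.15 on the probes shown and did not pass. On the dimmer probe of Psmc5, in a fit over all kept probes, the mean response was 0.49 ± 0.0781 log2. There the M2 arrays read 7.90 to 8.21, against 7.40 to 7.63 on the M0 arrays. Of the 3 other base subunits measured, the scaffold subunits Psmd1 and Psmd2 had mean responses of 0.15 and 0.13, the ubiquitin receptor Psmd4 one of -0.02, and none passed. The dimmer probe of Psmd2 gave 0.33 ± 0.131 in the fit over all kept probes.

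In the lid, 6 of 7 measured genes lay above 0 and 2 rose. Psmd14, the deubiquitinase that cuts the ubiquitin chain from the substrate, read 9.11, 9.06 and 9.24 log2 units in LMP7ko M2 cells, against 9.05, 8.66 and 8.86 in LMP7ko M0 cells. It read 9.11, 9.05 and 9.09 in WT M2 cells, against 8.89, 8.70 and 8.64 in WT M0 cells. The groups did not overlap within either genotype, and the mean response was 0.31 ± 0.0843 log2 (adjusted p = 0.01558). Psmd6, a scaffold subunit of the lid, read 8.19, 8.22 and 8.27 in LMP7ko M2 cells, against 7.89, 7.83 and 7.81 in LMP7ko M0 cells, and 7.96, 8.24 and 8.01 in WT M2 cells, against 7.90, 7.99 and 7.90 in WT M0 cells. Its groups stood clear of each other in LMP7ko cells and overlapped in WT cells, with a mean response of 0.26 ± 0.0698 log2 (adjusted p = 0.01403). Psmd7, Psmd11, Psmd12 and Psmd13 had mean responses of 0.14 to 0.21 on the probes shown and did not pass. In a fit over all kept probes, the dimmer probes of Psmd11 and Psmd12 gave 0.31 ± 0.158 and 0.36 ± 0.113. Psmd8 was the member of the lid below 0, at -0.13 ± 0.0668 log2 (adjusted p = 0.188), and all 3 of its LMP7ko M2 arrays, at 9.59, 9.58 and 9.62, lay below the LMP7ko M0 arrays, at 9.76, 9.78 and 9.89.

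Among the activators, Psme3, which forms the PA28 cap of the nucleus, had the largest mean response of any member past the threshold. It read 7.09, 7.62 and 8.04 log2 units in LMP7ko M2 cells, against 6.82, 7.24 and 6.85 in LMP7ko M0 cells. In WT cells it read 7.52, 7.92 and 7.39 in M2, against 7.21, 7.25 and 6.88 in M0. It rose by 0.56 ± 0.165 log2 (adjusted p = 0.02357), with arrays spread more widely than those of the other risers and overlapping groups in LMP7ko cells. Psme1, the partner of Psme2 in the other PA28 cap, had a mean response of 0.11 ± 0.0807 (adjusted p = 0.3293). Psme4, which encodes PA200, gave 0.20 on its brighter probe and -0.23 on its dimmer one, the sole case among the 11 members with several kept probes in which the probes differed in sign in the mean response. For 9 of those 11 all probes lay above 0, and for Psmd10 all lay below.

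None of the core assembly factors passed. Psmg1 and Psmg2, partners in the scaffold on which the alpha ring forms, had mean responses of 0.40 ± 0.223 and 0.31 ± 0.146 log2 (adjusted p = 0.2158 and 0.1377). Their probes were the ones not detected on all arrays. Pomp, the maturation factor that the finished core degrades, stayed between 10.46 and 10.56 in LMP7ko M2, between 10.35 and 10.55 in LMP7ko M0, between 10.42 and 10.44 in WT M2 and between 10.41 and 10.51 in WT M0 cells. Its mean response of 0.01 had a 95% interval of -0.13 to 0.15.

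**Figure D3:**
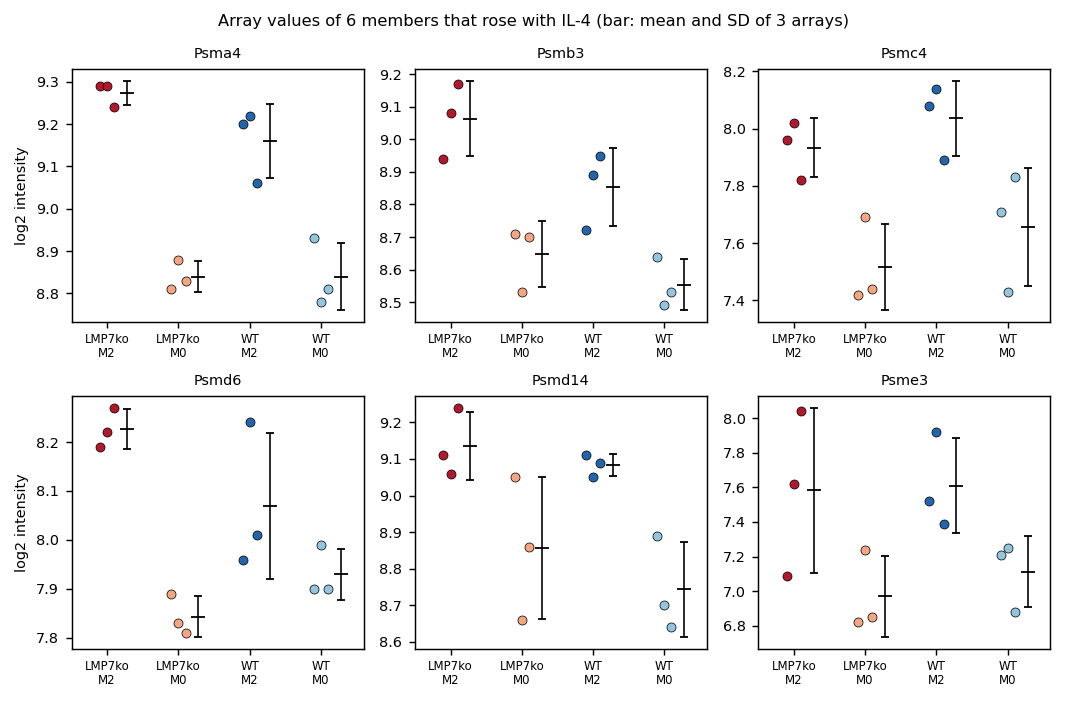
Log2 intensity (y axis) of 6 of the 11 members that rose with IL-4, with 1 point per array in the 4 groups and a bar for the mean and SD of 3 arrays. In Psma4 and Psmb3 every M2 point lies above every M0 point, while the groups of Psmd6 overlap in WT cells and those of Psme3 in LMP7ko cells.

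How the arrays were scaled mattered for these calls. With arrays scaled to a common median in place of quantile normalization, the median difference was 0.207 and 32 members stayed above 0, but 1 member, Psme3, passed. Without the 3 arrays of lowest detected share, a setting chosen after seeing the data, 5 passed, and without WT M2 array b 7 did. With all kept probes averaged 13 passed, and with a trended and robust variance model 14 did. Psma4, Psmb3, Psmc4 and Psmd14 each passed in 21 of 22 alternative settings, the exception being median scaling, and Psmd6 in 20 and Psma3 in 19. Psma3 lost its call without LMP7ko M0 array c, at 0.211. Psmb2 passed in 17 of 22 and lost its call without LMP7ko M0 array a, WT M0 array a or WT M2 array b, at 0.244 to 0.274. Psme3 passed in 16 of 21 and lost its call without LMP7ko M0 array a or c, WT M0 array c or WT M2 array b, at 0.48 to 0.526. Psmb1 passed in 13 of 22, and its call was lost without any 1 of 7 arrays, at 0.201 to 0.236; it was kept without LMP7ko M2 array b or c, LMP7ko M0 array c, WT M2 array c or WT M0 array a. Psma6 and Psmc1 passed in 11 of 22 and each lost its call without any 1 of 9 arrays, at 0.233 to 0.271 and at 0.206 to 0.286; the arrays without which they kept it were LMP7ko M0 array c, WT M2 array a and WT M0 array c for Psma6, and LMP7ko M0 array a, WT M2 array b and WT M0 array b for Psmc1.

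Taken within 1 genotype, with 3 arrays against 3, fewer members passed. In LMP7ko cells 5 of 35 rose, against 10.3% of all genes, and 1 fell, against 11.4% of all genes. The risers were Psma4 by 0.43 ± 0.0919 log2 (adjusted p = 0.006092), Psmb3 by 0.42 ± 0.108 (0.01864), Psmd6 by 0.38 ± 0.0987 (0.01809), Psmc4 by 0.42 ± 0.132 (0.04447) and Psma6 by 0.37 ± 0.120 (0.04605). The gene that fell was Psmd10. The largest positive differences, of Psmg1 at 0.66 ± 0.315 and Psme3 at 0.62 ± 0.233, did not pass (adjusted p = 0.1713 and 0.0864). Nor did the lowest after Psmd10, of Psmd8 at -0.21 ± 0.0945 and Psmc6 at -0.04 ± 0.128 (adjusted p = 0.1428 and 0.8672). The median of the 35 was 0.21, against 0 over all genes, and 31 of 35 lay above 0, as did 50.4% of all genes. For 18 of 35 members the 3 M2 arrays lay above the 3 M0 arrays, as they did for 17.8% of all genes. Leaving out LMP7ko M0 array b or c left 3 members past the threshold, and leaving out LMP7ko M2 array b or c left 2. Psma4 kept its call with any 1 array left out, but none of the 6 passed with median scaling, where Psma4 had an adjusted p of 0.2191. In a fit of the LMP7ko groups alone 1 member passed, Psma4. Without the 3 arrays of lowest detected share, a setting chosen after seeing the data, Psmb3 passed and Psma4 did not (adjusted p = 0.05324). With replicate number as a block, on the authors' processed values, 7 passed and Psmc4 lost its call, at 0.315 (adjusted p = 0.05038). Psmb3 lost its call without LMP7ko M0 array b or LMP7ko M2 array b or c, at 0.359 to 0.405, and Psmd6 without LMP7ko M0 array b or c or LMP7ko M2 array c, at 0.357 to 0.375. Psmc4 lost its call without any 1 of 8 arrays, at 0.368 to 0.47, and kept it without LMP7ko M0 array b, WT M2 array c or WT M0 array b or c. Psma6 lost its call without any 1 of 10 arrays, at 0.328 to 0.387, and kept it without LMP7ko M0 array c or WT M2 array a.

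In WT cells 1 of 35 rose, against 8.43% of all genes, and 0 fell, against 7.62% of all genes; at an unadjusted p under 0.05, 6 were higher, against 14.6% of all genes, and 0 lower, against 13.8% of all genes. The riser was Psma4, by 0.32 ± 0.0919 log2 (adjusted p = 0.03724). That call was lost without LMP7ko M0 array c, WT M0 array b or c, or WT M2 array a or b, with values of 0.288 to 0.318. The median of the 35 was 0.16, against 0 over all genes, and 32 of 35 lay above 0, as did 50.4% of all genes. For 14 of 35 the M2 arrays lay above the M0 arrays, as they did for 17.3% of all genes. The 3 largest WT differences did not pass: Psme3 at 0.50 ± 0.233, Psmc4 at 0.38 ± 0.132 and Psmd14 at 0.34 ± 0.119 log2 (adjusted p = 0.1872, 0.07787 and 0.07988).

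Of the 35 members, 30 lay above 0 in LMP7ko and in WT cells, 2 lay below in both and 3 differed in sign. The 2 were Psmd4 and Psmd8, and the 3 were Psmc6, Psmd10 and Pomp. The response was larger in LMP7ko cells for 22 of 35, as it was for 47.3% of all genes; the number was 14 with median scaling and 17 without the 3 arrays of lowest detected share. Over the 35 genes, which are not independent replicates, the responses correlated with r = 0.47, and over all genes with r = 0.80; the comparisons share no array, but their spread was estimated in 1 fit.

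Psmd10 departed from this pattern. It encodes gankyrin, a chaperone that holds the ATPase Psmc4 while the base is built, and it is also known as an oncoprotein in liver. Its brightest probe (ILMN_3003308) read 8.95, 8.85 and 9.04 log2 units in LMP7ko M2 cells, against 9.63, 9.25 and 9.35 in LMP7ko M0 cells. In WT cells it read 9.40, 9.57 and 9.47 in M2, against 9.39, 9.08 and 9.39 in M0. The 3 LMP7ko M2 arrays lay below each of the other 9 arrays. Psmd10 fell with IL-4 in LMP7ko cells by 0.46 ± 0.129 log2 (adjusted p = 0.02639). In WT cells the difference was 0.19 ± 0.129 log2 with a 95% interval of -0.09 to 0.47 (adjusted p = 0.3764), and all 3 M2 arrays lay above the M0 arrays. The call in LMP7ko cells held in 15 of 23 alternative settings, with values of -0.536 to -0.349, and was lost without LMP7ko M0 array a or c or LMP7ko M2 array a or b. It was also lost with all kept probes averaged (-0.37, adjusted p = 0.0641), with median scaling (adjusted p = 0.1253), in a fit of the LMP7ko groups alone (0.07059) and without the 3 arrays of lowest detected share (0.1562).

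The other probes of Psmd10 were set beside the brightest in a fit over all kept probes, whose SEs differ slightly from those of the fit over genes. With IL-4 in LMP7ko cells the brightest, middle and dimmest probes gave -0.46 ± 0.131, -0.35 ± 0.139 and -0.30 ± 0.175 log2. Between LMP7ko M2 and WT M2 cells they gave -0.53 ± 0.131, -0.36 ± 0.139 and -0.34 ± 0.175, so that all 3 were lower in LMP7ko M2 cells in both comparisons. They parted on the response of WT cells, at 0.19, -0.02 and -0.23, and on the genotype difference in M0 cells, at 0.12, -0.03 and -0.27. The response in LMP7ko minus that in WT cells was -0.65 ± 0.185 log2 on the brightest probe, -0.33 ± 0.197 on the middle one and -0.08 ± 0.247 on the dimmest. The contrast between the genotypes' responses was thus largest on the brightest probe. Each probe had a lower mean in LMP7ko M2 cells than in LMP7ko M0 or WT M2 cells. On the dimmest probe the -0.30 and -0.34 were close to its WT response of -0.23 and M0 genotype difference of -0.27. Each of these had an SE of 0.175.

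**Figure D4:**
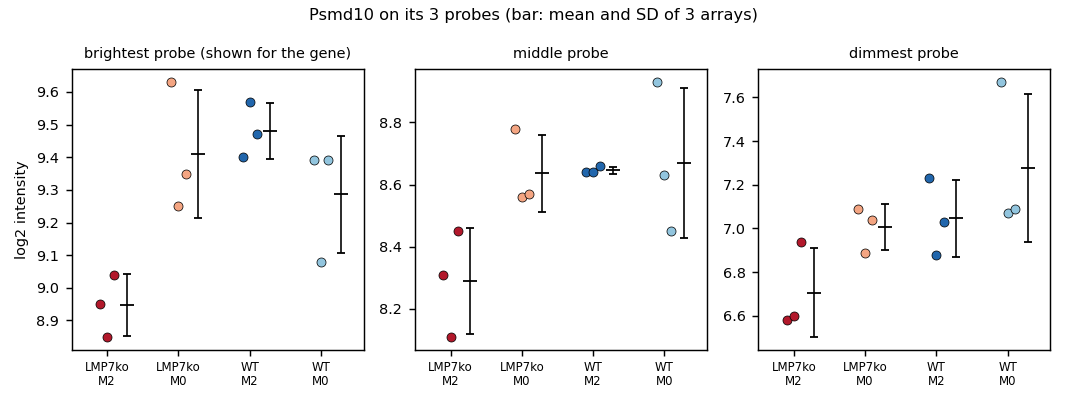
Log2 intensity (y axis, a separate scale for each probe) of the 3 probes of Psmd10, with 1 point per array in the 4 groups and a bar for the mean and SD of 3 arrays. On the brightest probe the 3 LMP7ko M2 points lie below all others; on the middle probe they do too, touching WT M0 array c, and on the dimmest probe LMP7ko M2 array c lies above LMP7ko M0 array b and WT M2 array b.

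Between LMP7ko and WT cells, no measured structural gene passed the test in either state. In M0 cells 0 of 35 members differed past the threshold, against 0.686% of all genes (limma), and 1, Psmd1, was lower at an unadjusted p under 0.05, against 4.81% of all genes. The median difference was 0, and the members lay between -0.26 (Psmd1) and 0.14 (Psma1) log2. The 95% interval lay within 0.5 log2 units of 0, or 1.41-fold either way, for 29 of 35 members, as it did for 41.3% of all genes. Psmd1 read 8.26, 8.01 and 8.16 in LMP7ko M0 cells, against 8.31, 8.41 and 8.48 in WT M0 cells, a difference of -0.26 ± 0.111 log2 (adjusted p = 0.4763). It was 1 of 5 members whose LMP7ko M0 arrays all lay below the WT M0 arrays, with Psmc2, Psmd6, Psmd9 and Psmd13, and 0 lay above; 7.39% of all genes lay below in this way and 7.39% above. Their differences were -0.26 to -0.08, and none passed. Psme4 and Psmd13 had the next largest negative differences, -0.22 ± 0.177 and -0.20 ± 0.116, and Psmd10 and Psmd14 the next largest positive ones, 0.12 ± 0.129 and 0.11 ± 0.119 (adjusted p of 0.6585 to 0.8416).

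In M2 cells, too, 0 of 35 members differed past the threshold, against 2.04% of all genes (limma), and 1, Psmd10, was lower at an unadjusted p under 0.05, against 6.78% of all genes. The median difference was 0.03, and again 29 of 35 intervals lay within 0.5 log2 units of 0, as did 40.3% of all genes. Psmd10 was lowest, at -0.53 ± 0.129 log2 with a 95% interval of -0.81 to -0.24 (adjusted p = 0.06581), just outside the threshold. In 5 of 23 alternative settings it came inside, and over the 23 the adjusted p ran between 0.001654 and 0.3461. Psmg1 was highest, at 0.47 ± 0.315 (adjusted p = 0.6347): it read 6.73, 6.70 and 6.74 in LMP7ko M2 cells, against 6.82, 5.85 and 6.10 in WT M2 cells, where it was detected on 2 of 3 arrays. Psmb3 and Psma7 followed, at 0.21 ± 0.108 and 0.17 ± 0.0992, and on the other side Psmd9 and Psmc6, at -0.25 ± 0.164 and -0.20 ± 0.128 (adjusted p of 0.4941 to 0.6251). The LMP7ko M2 arrays lay above the WT M2 arrays for 3 members, Psma4, Psma7 and Pomp, and below for 2, Psmd7 and Psmd10, against 8.97% and 10.3% of all genes.

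Averaged over M0 and M2 cells, 0 of 35 members differed, against 3.25% of all genes (limma), and 1, Psmd10, was lower at an unadjusted p under 0.05, against 7.74% of all genes. The members lay between -0.20 and 0.20 log2, and 34 of 35 intervals lay within 0.5 log2 units of 0, as did 67.8% of all genes. At the ends stood Psmd10 at -0.20 ± 0.0911, Psmd9 at -0.18 ± 0.116 and Psme4 at -0.18 ± 0.125, and Psmg1 at 0.20 ± 0.223, Psmb3 at 0.15 ± 0.0767 and Psmb1 at 0.12 ± 0.0720. The genotype differences in M2 and M0 cells correlated with r = 0.05 across the 35 genes and 0.37 over all genes, which are not independent replicates, and 14 of 35 differed in sign. Among the 11 members with several kept probes, the probes differed in sign for 4 in the mean over M0 and M2 cells. Shifts smaller than the intervals were not detectable with 3 arrays a group.

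**Figure D5:**
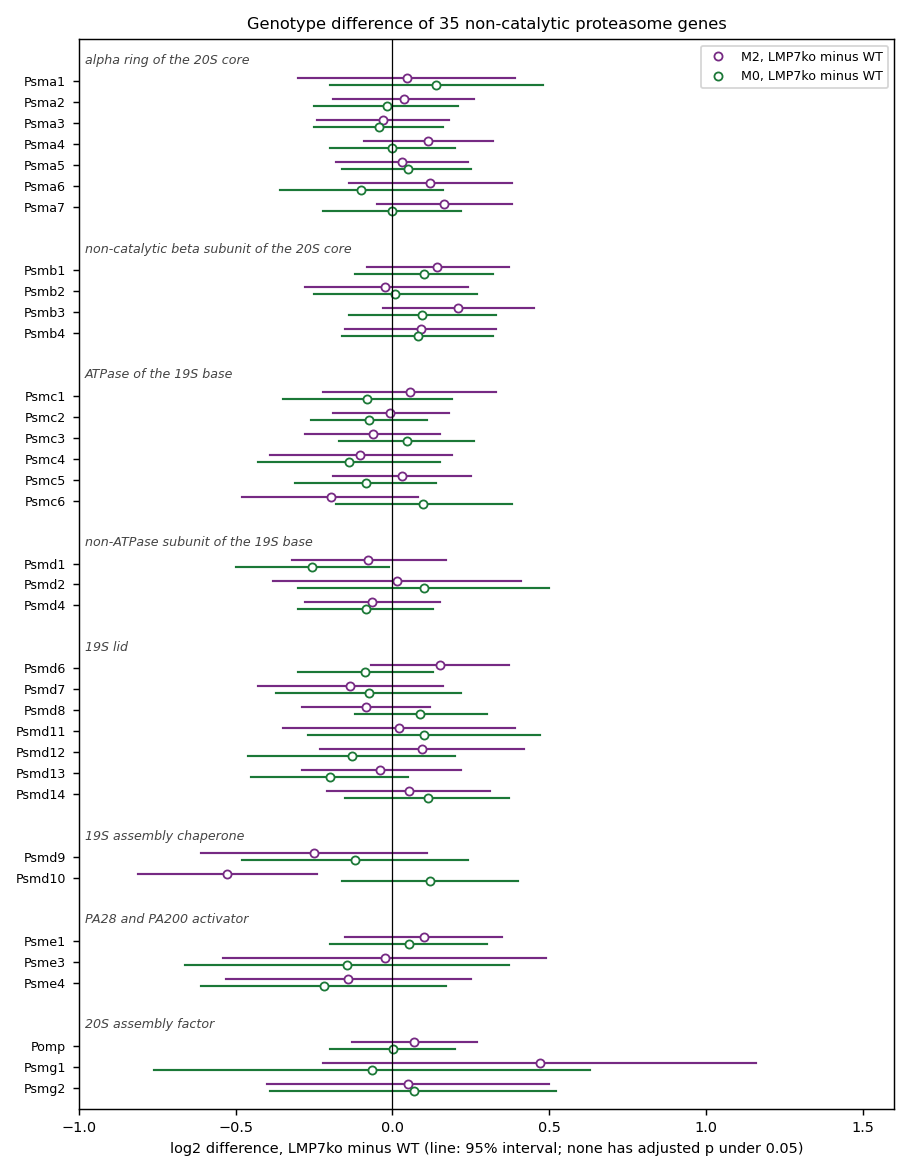
Each row is 1 of the 35 measured genes, grouped by role; points give the log2 difference between LMP7ko and WT cells (x axis) in M2 and in M0 cells, and lines the 95% interval from limma. Points scatter around 0 and none has an adjusted p under 0.05; Psmd10 in M2 cells, at -0.53, has an interval clear of 0, as has Psmd1 in M0 cells.

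Whether IL-4 acted differently in the genotypes was tested as the difference of the responses, that in LMP7ko cells minus that in WT cells. Of the 35 members 0 passed, against 0.107% of all genes (limma), and 1, Psmd10, was lower at an unadjusted p under 0.05, against 4.02% of all genes. Psmd10 gave -0.65 ± 0.182 log2 with a 95% interval of -1.05 to -0.25 (adjusted p = 0.425). Psmc6 and Psmd8 followed at -0.30 ± 0.181 and -0.17 ± 0.134, and on the other side stood Psmg1 at 0.53 ± 0.445, Psmd6 at 0.24 ± 0.140 and Psmd12 at 0.22 ± 0.211 (adjusted p of 0.8902 to 0.9603). The median over the members was 0.04. The intervals were wide, with a median half-width of 0.36 log2 units, and 19 of 35 lay within 0.5 of 0, so that the larger number of calls in LMP7ko cells does not show a larger response there.

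Other genes of the pathway, from lists given by name, were set beside the shares of all genes that rose, 15.3%, and fell, 16%, in the mean response to IL-4. Of 6 catalytic beta subunits measured, among them Psmb8, detected in WT cells alone, 2 rose: Psmb10, the immunoproteasome subunit beta2i, by 0.69 ± 0.0639 log2 (adjusted p = 1.349e-05), and Psmb7, its standard counterpart, by 0.28 ± 0.0913 (0.03464). Psmb10 read 11.14, 10.99 and 11.09 in LMP7ko M2 cells, against 10.39, 10.44 and 10.36 in LMP7ko M0 cells, and 10.86, 10.72 and 10.86 in WT M2 cells, against 10.15, 10.11 and 10.10 in WT M0 cells.

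Of 11 measured factors that associate with the proteasome, 2 rose and 1 fell, numbers near those shares, and the median was 0.02. Usp14, the deubiquitinase that docks on the base, rose by 0.30 ± 0.0911 log2 (adjusted p = 0.02581), and Txnl1, a thioredoxin-like protein of the regulatory particle, by 0.53 ± 0.170 (0.0352). Zfand2a, an arsenite-inducible partner of the regulatory particle, fell by 0.65 ± 0.117 log2 (adjusted p = 0.001456). Of 8 measured regulators of proteasome gene transcription and their processing, 1 rose and 1 fell. Vcp, the ATPase that extracts ubiquitinated proteins and lets Nfe2l1 mature, rose by 0.25 ± 0.0681 (0.01475). Nfe2l2, which drives proteasome genes under oxidative stress, read 9.01, 9.07 and 9.12 in LMP7ko M2 cells, against 9.55, 9.66 and 9.68 in LMP7ko M0 cells, and 9.25, 9.41 and 9.29 in WT M2 cells, against 9.54, 9.53 and 9.64 in WT M0 cells. It fell in the mean response by 0.41 ± 0.0657 (adjusted p = 0.0006829). Of 5 measured genes of peptide loading and the interferon response, 0 passed in any comparison.

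Between the genotypes, a catalytic subunit other than the deleted one did differ. Psmb9, the immunoproteasome subunit beta1i, was higher in LMP7ko cells by 0.54 ± 0.0820 log2 in the mean over M0 and M2 cells (adjusted p = 0.004442). It was higher by 0.63 ± 0.116 in M0 cells (adjusted p = 0.03576) and did not pass in M2 cells, at 0.45 ± 0.116 (adjusted p = 0.08117). In the mean, Psmb5 gave 0.36 ± 0.0940 and Psmb10 0.26 ± 0.0639, short of the threshold (adjusted p = 0.06613 and 0.05091). None of the 11 proteasome-associated factors or the 8 regulators of proteasome genes differed past the threshold in either state or in the mean. The structural partners of these subunits in the beta rings, Psmb1, Psmb2, Psmb3 and Psmb4, gave 0.12, -0.01, 0.15 and 0.09 in the mean over M0 and M2 cells, and none passed. The further probes of Psmb2 gave 0.07 ± 0.079 and 0.19 ± 0.0751 in a fit over all kept probes.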

How the data were processed

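RNA isolated on columns with DNase digestion was amplified by whole-transcriptome amplification and biotin-labelled, per the labels' protocols. The deposited table holds, per the file headers, a non-normalized intensity and a detection p-value for each of 25697 probes on 12 arrays. The deposited intensities span -72 to 12659, and values below 0 show that background was already removed, by software not given in the sources used here. A second set of values, the authors' processed intensities, served as an alternative; it is linear, with a median of 86 in every column. Columns of the first table name the group but no replicate number, and arrays are called a, b and c in the order of their names. No pair of arrays shared more than 3.24% of identical intensities.

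Intensities were corrected in limma 3.58.1 (R 4.3.3) by normexp with background from the detection p-values (offset 16), log2 transformed and quantile normalized. Probes detected at p under 0.05 on at least 3 of 12 arrays were kept (9200), and each of 6563 genes was represented by its brightest kept probe. Of all probes, 23978 had 1 gene symbol in the platform annotation, 0 several and 1719 none. All 12 arrays entered 1 model with 4 group means, 7 contrasts and 8 residual degrees of freedom, with Benjamini-Hochberg adjustment over all genes; ± after a difference is its SE. Steps were tested on simulated data. Array number, 3 a group, limits the precision.

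Members past the threshold and the 3 largest differences in each direction were named in each comparison, with every gene not measured; other pathway genes were named where they passed. Psmb5, the genotype values of Psmb10 and the promoters shown were added after values were seen. The members and lists were chosen with earlier results of these data known. Motifs were searched in RefSeq promoters of GRCm38.p6. Alternatives covered the scaling, offset, detection filter, probe choice, variance model, the authors' values, each array left out, and replicate number as a block, which is tied to samples only in the second table. Same-numbered samples deviated together with r over 0.1 in 11 of 18 pairs. Among them were all 3 pairs of LMP7ko M2 with LMP7ko M0 and all 3 of LMP7ko M0 with WT M0. All 3 of LMP7ko M2 with WT M0, groups that differ in both genotype and state, were also among them, at 0.138 to 0.396. The pairs of WT M2 with WT M0 had r of 0.151, -0.01 and 0.07. Those of LMP7ko M2 with WT M2 had r of 0.122, -0.017 and 0.055. The block was fitted over all 12 samples and so entered every comparison, these included. The main fit paired no samples, and the labels do not say what a number shares. Figures used matplotlib 3.10.9 and Python 3.11.15.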

Additional observations from a re-analysis of the deposited data

How the results depend on the processing

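No value past the threshold changed sign in any alternative run, though medians near 0 did. The count of members past the threshold in the IL-4 response of LMP7ko cells, 6, became 0 with median scaling, 11 with a detection p under 0.01 required on all arrays, 13 with a trended and robust variance model, 1 with a fit of that contrast's groups alone, 1 without the 3 arrays of lowest detected share (chosen after seeing the data) and 2 to 5 with 1 array left out; its median difference was then 0.172 to 0.222. The WT count, 1, became 0 with median scaling, with cyclic loess, with its own groups alone and without those 3 arrays, 6 with the strict detection filter, 2 with all kept probes averaged, 5 with the trended model and 0 to 1 with 1 array left out, and its median was 0.226 with median scaling. The count in the mean response, 11, became 1 with median scaling, 5 without the 3 arrays and 7 to 10 with 1 array left out. It became 13 with all kept probes averaged, 14 with the trended model and 12 with the replicate block. The median of 0.191 became 0.15 in the authors' processed values and 0.155 without the 3 arrays. The genotype count in M2 cells, 0, became 1, in each case Psmd10, with an offset of 50, the authors' processed values, the strict filter and the trended model, and the difference of the responses likewise became 1 with the trended model. The median genotype difference in M0 cells was 0.084 with median scaling and -0.045 to 0.001 with 1 array left out. The median difference of the responses was -0.029 with median scaling, where the median over all genes was -0.102, -0.002 without the 3 arrays and 0.01 to 0.072 with 1 array left out. The cause of these moves was not tested.

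With the replicate block, fitted on the authors' processed values, the count in LMP7ko cells was 7, with Psmc4 lost (adjusted p = 0.05038), the WT count was 3, with Psmd14 gained (adjusted p = 0.04387), the M2 genotype count 1 (Psmd10) and the median mean response 0.15; 10 of 12 samples correlated best with their own number, a hint from the data and not from the design. Of the comparisons for named members, 1132 kept their side of the threshold, 108 lost a call and 13 gained one. The 1132 include members that did not pass in the main run and had no call to lose. They therefore do not measure how stable the calls were.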
